A study of Rattus norvegicus with 6 samples.

Results

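Genes for making and recycling nucleotides and for folate one-carbon metabolism were examined in cultured cells of the rat nucleus pulposus, which is the soft centre of a spinal disc. The set was a list of 42 gene symbols, and each of the 42 was found on 1 row of the 17093 genes measured in every library. By role it held 8 genes of deoxynucleotide supply, 12 of purine synthesis, 5 of pyrimidine synthesis, 10 of salvage and nucleotide kinases and 7 of folate one-carbon steps. One condition was serum starvation, meaning DMEM-F12 medium free of fetal bovine serum (3 libraries), and the control was the same medium with 10% serum (3 libraries), both labelled 48 h. Cells of both groups came from male rats, were at passages 3 to 6 and had been grown with penicillin and streptomycin. Strain, age and the number of animals are not given in the labels, nor whether libraries of a group came from separate cultures, so p-values measure the spread between these libraries, which may be technical.

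Cells build purine rings stepwise on a ribose phosphate made by PRPP synthetases, and build the pyrimidine ring first and then attach it. Ribonucleotide reductase turns ribonucleotides into deoxynucleotides, and thymidylate synthase adds the methyl group that makes thymidylate, using a folate carrier. Folate enzymes in mitochondria and cytosol move single carbon units from serine to purines and thymidylate, while salvage kinases and phosphoribosyltransferases reuse free bases and nucleosides. In mammals, several genes of deoxynucleotide supply are known for high transcript levels in S phase, when DNA is copied.

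Values are the deposited ones, treated as FPKM (fragments per transcript length and sequencing depth), a scale that corrects for length and so allows levels of different genes to be set side by side. They summed to between 447788 and 473452 in serum-starved and between 522165 and 530095 in control libraries, and the depth in reads is unknown. Of 11 tested nucleus pulposus markers 7 fell and 3 rose, while 29.4% of all tested genes were called lower and 31.7% higher. Car12, among the 7, reached a value of 1 only in control libraries and so could only be called lower. All 15 markers summed to 238 to 252 in serum-starved and 512 to 573 in control libraries. Among them Krt18 was listed at 0 in every library and Col2a1 did not exceed 0.06. Acan fell to 3.05 ± 0.333 in serum-starved against 77.5 ± 28.1 in control cells. Slc2a1, Sox9 and Cd44 were 4.63-fold, 4.03-fold and 2.59-fold lower. Of those that rose, Pax1 had values of 46.2 to 56.3 in serum-starved and 23.6 to 29.7 in control libraries, and Car3 was 25.4-fold higher. Markers of endothelial cells summed to 0.62 to 0.79 in serum-starved and 0.58 to 1.19 in control libraries, and those of macrophages and leukocytes to 10.7 to 14.3 and 23.5 to 29.9 in the same order. Among these Csf1r did not exceed 0.25 and Adgre1 0.02, while Cd14 fell to 8.54 ± 1.86 in serum-starved against 24.8 ± 2.85 in control cells and Cd68 rose 1.73-fold. Muscle markers summed to 12.5 to 16.9 in serum-starved and 114 to 138 in control libraries, nearly all of it Des, which was 9.73-fold lower, with Myh1 at most 0.03. Of the annulus and tendon markers, which summed to 46.3 to 58.3 in serum-starved and 49.7 to 57.7 in control libraries, Mkx rose 2.96-fold, Thbs4 was 2.18-fold lower and Scx was not called. The part of other cell types in the results was not tested. RNA came from whole cultures, so fewer cells that express a gene and less RNA of it per cell cannot be told apart.

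Most of the set was lower without serum. A gene was tested if its value reached 1 in at least 3 libraries, which 40 of the 42 did, and calls were made with limma over all 11493 tested genes, where the adjusted p (Benjamini-Hochberg) did not exceed 0.05. Of the 40, 28 fell (70%), 5 were called higher (12.5%) and 7 were not called, while among all tested genes 61.1% were called, 29.4% lower and 31.7% higher. Log2 fold changes are differences of mean log2(value + 1), starved cells minus control cells, and their median was -0.56 over the 40 genes and 0.03 over all tested genes. In 28 of the 40 tested genes, all 3 serum-starved libraries lay below all 3 control libraries, against 32.5% of all tested genes. These were 27 of the 28 genes that fell, and Gart, which was not called. A fall of at least 1 on the log2 scale was found for 10 of the 40, while 7.18% of all tested genes were called and fell that far. Apart from Hprt1, whose control values were listed at or near 0, none of the set was called higher by as much, while 4.17% of all tested genes were. When each library was rescaled to the same sum, the median of all tested genes moved up by 0.18. Relative to that median the set stood at -0.61, against -0.59 as deposited.

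**Figure D1:**
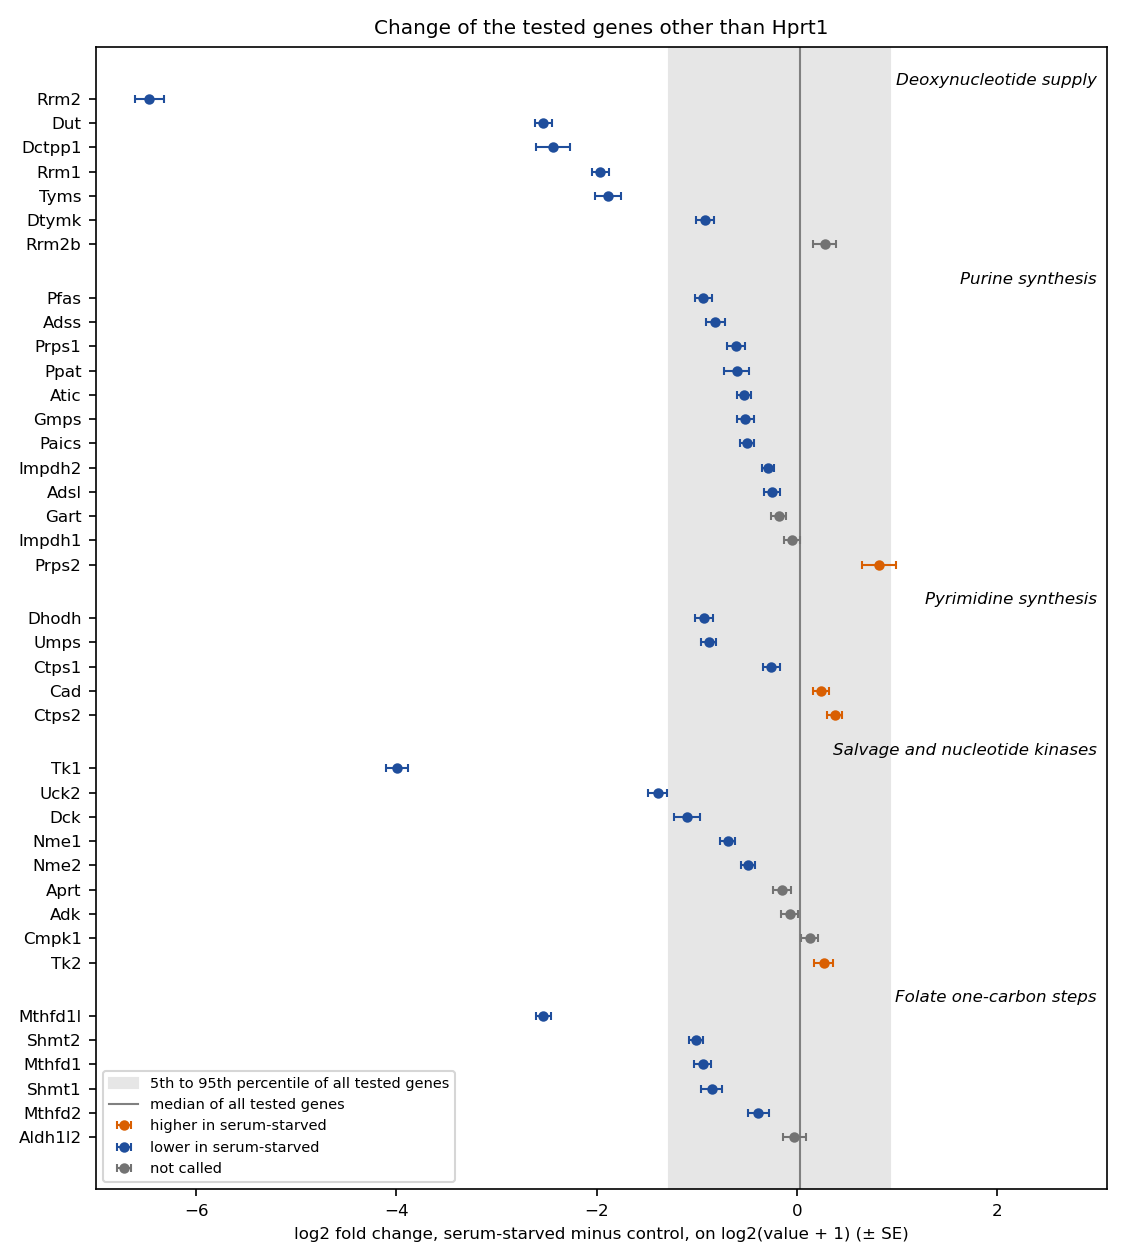
Log2 fold change of each tested gene other than Hprt1 (serum-starved minus control, log2(value + 1) scale, bars are standard errors, 3 libraries per group), by role, over a grey band that spans the 5th to 95th percentile of all tested genes. Rrm2 (-6.47) and Tk1 (-3.99) lie farthest below the band.

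Deoxynucleotide supply held Rrm2, the gene that fell most, and its median log2 fold change was -1.96. Of its 7 tested genes 6 fell and 0 rose by limma (1, Rrm2b, at an unadjusted p under 0.05). Among all tested genes 29.4% fell and 31.7% rose. Rrm2 encodes the small subunit of ribonucleotide reductase that is made in dividing cells. It had values of 2.31, 1.34 and 1.69 in serum-starved libraries, against 284, 207 and 243 in control libraries. The means were 1.78 ± 0.491 and 245 ± 38.4 (SD, n = 3 each), so Rrm2 was 137-fold lower, and its log2 fold change of -6.47 ± 0.147 (SE) was the largest fall of all 11493 tested genes. Rrm1, the large subunit that every form of the enzyme needs, had 16.95, 15.3 and 14.7 in serum-starved cells and 70.2, 58.2 and 63.7 in control cells. The groups were far apart, at a log2 fold change of -1.96 ± 0.087 (limma, Benjamini-Hochberg adjusted p = 6.99e-07).

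Rrm2b, the alternative small subunit known as a p53 target and used outside S phase, had 4.28, 5.52 and 5.14 in serum-starved libraries and 4.11, 4.35 and 3.33 in control libraries. These groups overlapped, and the log2 fold change of 0.28 ± 0.117 was not called (limma, adjusted p = 0.0669). The call was made when each library was scaled to the same sum (adjusted p = 0.014) and without serum-starved replicate 1 (adjusted p = 0.0338), within a range of 0.014 to 0.199 over 15 alternatives. The order of the small subunits turned: Rrm2b made up 64.9%, 80.5% and 75.3% of the summed small-subunit value in serum-starved libraries, against 1.43%, 2.06% and 1.35% in control libraries. The sum of both small subunits was 6.59 to 6.86 in serum-starved and 211 to 288 in control libraries. Rrm2 stood at 0.0875 to 0.136 times the Rrm1 value in serum-starved cells and at 3.56 to 4.04 times in control cells.

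Enzymes that keep uracil and damaged bases out of DNA, or that feed thymidine triphosphate, were lower as well. Dut, the dUTPase that removes dUTP and yields the precursor of thymidylate, had 14.0, 11.3 and 12.2 in serum-starved libraries and 80.7, 75.03 and 74.96 in control libraries. Dctpp1, a pyrophosphatase that clears modified dCTP, had 4, 2 and 3.32 in serum-starved libraries, against 22.5, 19.6 and 20.1 in control libraries. Both sets of values were well separated, with Dut 6.14-fold and Dctpp1 6.68-fold lower. Tyms, thymidylate synthase, averaged 4.09 ± 0.268 in serum-starved and 18.0 ± 3.78 in control cells (SD, n = 3 each), 4.41-fold lower. Dtymk, thymidylate kinase, averaged 16.8 ± 1.98 and 32.5 ± 0.703 in the same order, 1.94-fold lower. Samhd1, which hydrolyses deoxynucleoside triphosphates, stayed below the filter and was not tested. Its values were 0.88, 0.99 and 0.84 in serum-starved libraries and 0.63, 0.75 and 0.63 in control libraries, all low and without overlap.

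The promoter windows of Rrm1, Tyms and Dctpp1 were picked because these genes fell and their windows hold an E2F or NF-Y word. Other genes that fell hold such a word too, among them Dtymk and Uck2, while Dut and Tk1, which also fell, hold none of the words searched. No window was available for Rrm2. Windows run from 250 bases before to 50 bases after the annotated start and come from RefSeq, build GRCr8, for 36 of the 42 genes. Capitals mark the E2F words TTGGCGC or TTCGCGC and the NF-Y word CCAAT, on either strand. Only these E2F spellings were searched. Others, such as TTCCCGC in the Rrm1 window, are neither marked nor counted, so a window without a marked word may still hold an E2F site.
Rrm1 (chr1:166235654-166235953, plus strand): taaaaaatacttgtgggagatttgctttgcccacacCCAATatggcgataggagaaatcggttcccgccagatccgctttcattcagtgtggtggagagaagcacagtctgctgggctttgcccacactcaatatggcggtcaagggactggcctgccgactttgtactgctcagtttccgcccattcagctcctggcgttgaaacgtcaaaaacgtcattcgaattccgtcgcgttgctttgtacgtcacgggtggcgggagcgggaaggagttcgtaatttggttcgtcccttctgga
Tyms (chr9:120776034-120776333, minus strand): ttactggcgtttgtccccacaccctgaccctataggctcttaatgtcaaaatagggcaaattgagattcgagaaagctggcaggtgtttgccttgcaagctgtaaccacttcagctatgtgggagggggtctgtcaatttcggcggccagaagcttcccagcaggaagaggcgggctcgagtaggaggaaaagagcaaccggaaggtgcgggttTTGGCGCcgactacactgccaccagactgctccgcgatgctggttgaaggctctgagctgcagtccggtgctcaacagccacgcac
Dctpp1 (chr1:191311277-191311576, minus strand): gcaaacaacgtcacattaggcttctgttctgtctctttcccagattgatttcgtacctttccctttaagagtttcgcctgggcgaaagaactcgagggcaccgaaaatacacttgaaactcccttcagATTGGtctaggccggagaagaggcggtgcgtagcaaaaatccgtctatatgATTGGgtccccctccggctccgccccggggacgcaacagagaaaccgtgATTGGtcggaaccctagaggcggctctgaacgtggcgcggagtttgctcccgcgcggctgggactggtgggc

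Rrm1 showed 1 CCAAT word, Tyms 1 E2F word and Dctpp1 3 CCAAT words on the opposite strand. Over the set, 5 of 36 windows held an E2F word (13.9%), those of Tyms, Samhd1, Pfas, Impdh2 and Shmt1, against 3.89% of 27457 rat promoter windows. Among the 9 windowed genes that fell by at least 1 on the log2 scale, 1 held it (11.1%). CCAAT was in 36.1% of the set and 37.7% of all windows. The CHR words TTTGAA or TTCGAA were in 13.9% and 19.5%, and the E-box CACGTG in 11.1% and 6.65%. The CARE word TGATGNAA, read by ATF4, was in 0 of 36 and in 3.82% of all windows. These are letter matches within 300 bases, and TTGGCGC after an A overlaps a CCAAT word of the other strand.

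**Figure D2:**
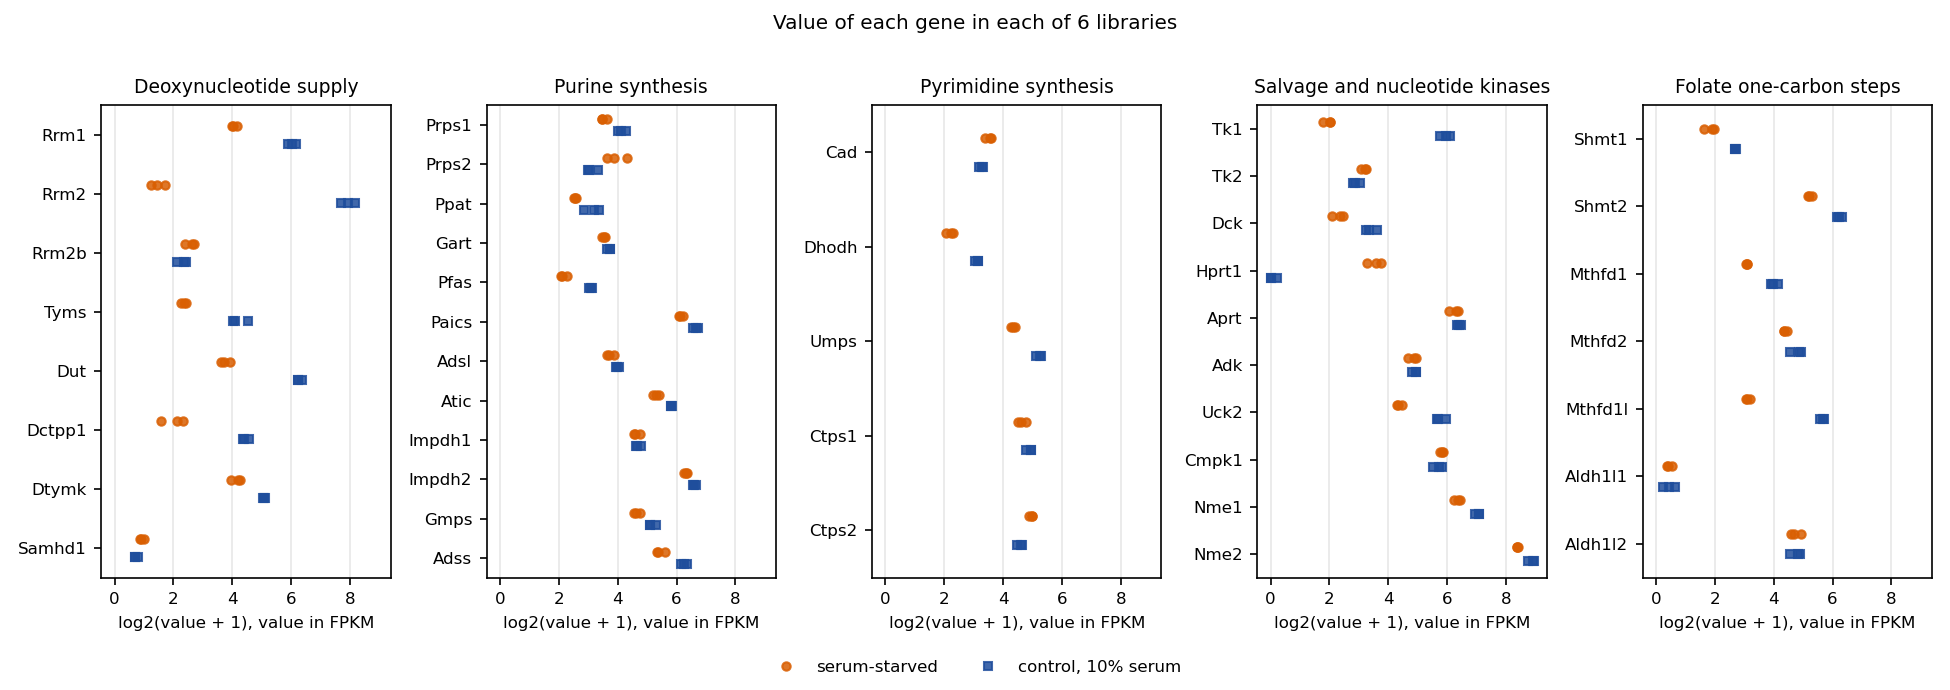
Level of each gene in every library as log2(FPKM + 1), by role, with circles for the 3 serum-starved and squares for the 3 control libraries. In the deoxynucleotide panel the groups lie apart for every gene except Rrm2b, while in the others Impdh1, Ctps1, Aprt, Adk, Cmpk1, Aldh1l1 and Aldh1l2 overlap.

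Against 29.4% lower and 31.7% higher of all tested genes, 9 of 12 tested genes of purine synthesis fell, 1 rose and 2 were not called. Of these genes 0 fell by 1 or more on the log2 scale, and their median was -0.51. At the entry, the PRPP synthetase genes went opposite ways. Prps1 had 10.1, 11.3 and 10.2 in serum-starved libraries and 18.6, 16.5 and 14.95 in control libraries. Prps2 had 11.6, 19.2 and 13.5 in serum-starved libraries, against 7.21, 7 and 9.08 in control libraries. Neither gene's groups overlapped, and both differences passed (log2 fold change -0.61 ± 0.092 for Prps1, limma, adjusted p = 0.000609, and 0.82 ± 0.171 for Prps2, adjusted p = 0.00324). Prps1 has a copy that the reference table names Prps1l3, so its own row is uncertain. With that copy added, which was decided after the values were seen, the sum was 17.5, 17.3 and 17.8 in serum-starved and 37.1, 33.9 and 34.9 in control libraries, with a log2 fold change of -0.97.

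Pfas, the fourth enzyme of the ring pathway, fell most among the steps after PRPP, with 3.87, 3.32 and 3.19 in serum-starved libraries and 7.8, 7.19 and 7.51 in control libraries. That was 2.17-fold lower, with no overlap (limma, adjusted p = 4.52e-05). Ppat, the committed step, averaged 4.82 ± 0.156 in serum-starved and 7.92 ± 1.51 in control cells, 1.64-fold lower. Paics, which carries a pair of later activities, averaged 69.7 ± 3.05 and 99.0 ± 5.98 in the same order, 1.42-fold lower. Atic, which closes the ring, was 1.45-fold lower, at 38.4 ± 2.62 in serum-starved and 55.6 ± 0.782 in control cells (SD, n = 3 each). Adsl, which acts both before Atic and on the AMP branch, was 1.199-fold lower, at 12.4 ± 1.07 in serum-starved and 14.9 ± 0.430 in control cells (limma, adjusted p = 0.0235). That call was lost in 5 of 16 alternatives (sum scaling and without either of serum-starved replicates 2 and 3 or of control replicates 1 and 2), with adjusted p from 0.0108 to 0.435. Gart, which carries 3 activities of the ring pathway in 1 protein, had 10.9, 9.95 and 10.6 in serum-starved and 12.4, 11.3 and 12.4 in control libraries. All starved values lay below, but the log2 fold change of -0.18 ± 0.074 was not called (limma, adjusted p = 0.0598, in a range of 0.027 to 0.959, and called under median-ratio scaling).

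Ppat and Paics are neighbours whose first bases overlap. In the RefSeq table their annotated starts lie 25 bases from each other on opposite strands of chromosome 14, and their promoter windows share 74 bases. Both genes fell (log2 fold change -0.60 ± 0.125 for Ppat and -0.50 ± 0.068 for Paics). Falls of that size were not particular to them, as Prps1 (-0.61), Atic (-0.53) and Gmps (-0.51) show. The part of the shared bases was not tested. The Ppat window is shown with these bases in capitals.
Ppat (chr14:31569760-31570059, plus strand, GRCr8): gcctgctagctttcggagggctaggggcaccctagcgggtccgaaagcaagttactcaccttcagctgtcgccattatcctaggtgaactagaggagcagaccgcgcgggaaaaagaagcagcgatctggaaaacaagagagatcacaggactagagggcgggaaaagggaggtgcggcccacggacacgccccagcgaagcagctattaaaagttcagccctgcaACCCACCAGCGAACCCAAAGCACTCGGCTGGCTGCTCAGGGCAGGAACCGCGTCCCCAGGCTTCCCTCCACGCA

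After the ring is closed, both branches were lower. Adss, listed as Adss2 in the reference table, starts the AMP branch. It had 48.2, 39.1 and 40.2 in serum-starved libraries and 80.6, 75.2 and 69.9 in control libraries, 1.77-fold lower without overlap. On the GMP branch, Impdh2, the inducible IMP dehydrogenase, had 79.7, 76.2 and 80.5 in serum-starved libraries, against 93.4, 95.9 and 99.7 in control libraries. Impdh1, the isoenzyme with a housekeeping role, had 22.7, 26.1 and 23.3 in serum-starved and 24.3, 26.6 and 23.8 in control libraries. The Impdh2 groups were apart and the log2 fold change of -0.29 ± 0.059 passed, while Impdh1 overlapped and its value of -0.05 ± 0.078 did not (limma, adjusted p = 0.00319 and 0.606). The Impdh2 call was lost under sum scaling (adjusted p = 0.165) and quantile normalization (adjusted p = 0.0565), with adjusted p from 0.00125 upward over 16 alternatives. Gmps, GMP synthetase, averaged 24.2 ± 1.91 in serum-starved and 35.1 ± 3.00 in control cells (SD, n = 3 each), 1.45-fold lower.

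In pyrimidine synthesis, 3 of 5 genes fell (60%) and 2 rose (40%), against 29.4% and 31.7% of all tested genes. Dhodh, the mitochondrial dehydrogenase of the pathway, had 3.18, 3.65 and 3.94 in serum-starved libraries and 7.25, 7.92 and 7.94 in control libraries. Umps, which makes UMP, had 19.1, 18.3 and 20.3 in serum-starved libraries, against 33.5, 38.0 and 37.2 in control libraries. The last steps before UMP were thus lower in every starved library, 2.15-fold for Dhodh and 1.89-fold for Umps. Cad, the protein that carries the first 3 steps, went the other way, with 9.43, 10.8 and 11.01 in serum-starved and 9.04, 8.1 and 8.78 in control libraries. Its rise was small, 1.21-fold, and the call (limma, adjusted p = 0.0345) was lost in 7 of 16 alternatives, among them without either of serum-starved replicates 2 and 3 or of control replicates 2 and 3, with adjusted p from 0.00472 to 0.120.

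The CTP synthetases also moved in opposite directions. Ctps1, the form linked to cell division in lymphocytes of humans, had 23.6, 26.7 and 21.9 in serum-starved libraries and 30.1, 29.7 and 26.7 in control libraries. Ctps2 had 28.7, 30.7 and 30.7 in serum-starved libraries, against 21.1, 23.4 and 24.3 in control libraries. Ctps2 was higher in every starved library and rose 1.31-fold (limma, adjusted p = 0.00226). Ctps1 overlapped between groups, and its call at 1.197-fold lower (adjusted p = 0.0346) was lost in 7 of 16 alternatives, among them without either of serum-starved replicates 1 and 3 or of control replicates 1 and 2, with adjusted p from 0.00553 to 0.546.

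Of 10 salvage and nucleotide kinase genes, 5 fell (50%), 2 were called higher (20%) and 3 were not called. Among all tested genes 29.4% fell and 31.7% rose. Tk1, the cytosolic thymidine kinase of S phase, had 3.02, 3.08 and 2.44 in serum-starved libraries, against 67.2, 52.7 and 61.4 in control libraries. It was 21.2-fold lower, the 29th largest fall of all tested genes. Tk2, its mitochondrial counterpart, had 8.46, 8.16 and 7.36 in serum-starved libraries and 5.9, 6.35 and 7.18 in control libraries. Tk2 was 1.23-fold higher with no overlap, but the call (limma, adjusted p = 0.0332) was lost in 7 of 16 alternatives, among them without either of serum-starved replicates 1 and 2 or of control replicates 1 and 2, with adjusted p from 0.00337 to 0.102. Tk1 was below Tk2 in all 3 serum-starved libraries and above it in all 3 control libraries.

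Dck and Uck2, kinases that salvage other nucleosides, were lower. Dck, deoxycytidine kinase, had 3.22, 4.14 and 4.47 in serum-starved libraries and 11.1, 8.39 and 9.23 in control libraries. Uck2, a uridine-cytidine kinase, had 21.3, 18.8 and 19.2 in serum-starved libraries, against 61.8, 49.2 and 50.1 in control libraries. They were 2.43-fold and 2.72-fold lower with no overlap (limma, adjusted p = 0.000154 and 8.53e-06). Cmpk1, the UMP and CMP kinase, had 55.1, 57.6 and 53.5 in serum-starved and 55.4, 51.9 and 45.1 in control libraries, which overlapped. Its log2 fold change of 0.13 ± 0.083 was not called, but was under sum scaling (adjusted p = 0.0102) and quantile normalization (adjusted p = 0.0144), in a range up to 0.575.

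The nucleoside diphosphate kinase genes Nme1 and Nme2 lie next to each other and are close copies, so reads could be split between them. Nme2 was the most abundant gene of the set, with 338, 328 and 328 in serum-starved libraries and 485, 487 and 426 in control libraries. Nme1 had 86.1, 73.7 and 82.4 in serum-starved libraries, against 134, 135 and 124 in control libraries. Both fell, and their sum, added after seeing the data, was lower by a log2 fold change of -0.53 ± 0.072.

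Purine salvage showed no call that can be read with confidence. Aprt, which reuses adenine, had 77.9, 66.4 and 81.8 in serum-starved and 78.97, 88.0 and 82.5 in control libraries. Adk, adenosine kinase, had 29.8, 28.1 and 24.5 in serum-starved and 29.9, 29.8 and 26.8 in control libraries. Both overlapped between groups, and their log2 fold changes of -0.14 ± 0.088 and -0.07 ± 0.086 were not called. Hprt1, which reuses hypoxanthine and guanine in every cell, had 12.4, 10.9 and 8.59 in serum-starved libraries, whereas control replicate 1 held 0.15 and control replicates 2 and 3 were listed at 0. Whether the listed zeros are failed estimates was not tested, and no fold is given. Without it, 4 genes of the set were called higher and 1 salvage gene was.

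All 5 called folate genes fell and 0 rose by limma (also 0 at an unadjusted p under 0.05). Aldh1l2 was not called and Aldh1l1 was not tested. Among all tested genes 29.4% fell and 31.7% rose. Mthfd1l, the mitochondrial synthetase that releases formate for export, had 8.22, 7.57 and 7.25 in serum-starved libraries and 51.4, 46.2 and 50.2 in control libraries. This was 6.41-fold lower, at a log2 fold change of -2.53 ± 0.074 (limma, adjusted p = 1.1e-07), with no overlap. Shmt2, the mitochondrial serine hydroxymethyltransferase, had 35.7, 38.0 and 35.2 in serum-starved libraries, against 79.1, 73.4 and 69.3 in control libraries. Shmt1, its cytosolic counterpart, had 2.76, 2.96 and 2.1 in serum-starved libraries and 5.37, 5.66 and 5.39 in control libraries. Both were lower in every starved library, 2.04-fold for Shmt2 and 2.10-fold for Shmt1.

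Mthfd1, the cytosolic enzyme that carries 3 folate activities, had 7.47, 7.59 and 7.24 in serum-starved libraries and 16.8, 14.1 and 14.8 in control libraries. Mthfd2, the mitochondrial dehydrogenase of the pathway, had 21.0, 19.5 and 19.5 in serum-starved libraries, against 28.3, 29.3 and 22.3 in control libraries. Mthfd1 was 2.05-fold lower, and Mthfd2 moved less, at 1.33-fold lower (limma, adjusted p = 0.0117). The Mthfd2 call was lost under sum scaling (adjusted p = 0.105), in a range of 0.000689 to 0.105. Aldh1l2, which burns formyl folate in mitochondria, had 23.3, 29.5 and 24.6 in serum-starved and 22.4, 27.5 and 28.96 in control libraries. Its cytosolic counterpart Aldh1l1 had 0.33, 0.29 and 0.45 in serum-starved and 0.18, 0.36 and 0.58 in control libraries. Both overlapped. Summed over the 4 mitochondrial genes, values were 89.8 ± 4.25 in serum-starved and 176 ± 5.28 in control cells. Over the 3 cytosolic genes they were 10.4 ± 0.544 and 21.1 ± 1.15 in the same order (SD, n = 3 each).

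Within 10 pairs of enzymes with the same or linked reactions, the ratio of the members inside each library was compared between groups. Rrm2b exceeded Rrm2, Tk2 exceeded Tk1 and Ctps2 exceeded Ctps1 in all 3 serum-starved libraries, while the opposite held in all 3 control libraries. Prps2 turned against Prps1 likewise when Prps1 was read from its own row. With the Prps1 copy added, Prps2 was above the sum in 1 of 3 serum-starved and 0 of 3 control libraries, at 0.661 to 1.11 and 0.194 to 0.260 times its value, so that turn was lost while the ratios of the groups still did not overlap. Mthfd1l stood at 0.997 to 1.10 times the Mthfd1 value in serum-starved and at 3.06 to 3.38 times in control libraries, whereas Mthfd2 stood at 2.57 to 2.82 and 1.501 to 2.08 times. In 8 of the 10 pairs the within-library ratios of the groups did not overlap. That gave the smallest p that an exact two-sided permutation test of 3 against 3 libraries allows, 0.1 (0.125 adjusted over the 10 pairs). The design therefore cannot pass 0.05 here. How often pairs of other genes separate in this way was not computed. Taken singly, 35.7% of all tested genes had all starved values above all control values, and 32.5% had them below. Differences in log2 ratio were -6.75 for Rrm2/Rrm2b, -4.26 for Tk1/Tk2, 1.43 for Prps2/Prps1 (1.79 with the copy added) and -0.63 for Ctps1/Ctps2. Shmt2/Shmt1 (-0.15) and Aldh1l2/Aldh1l1 (-0.01) overlapped, with exact permutation p of 0.3 and 1.

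**Figure D3:**
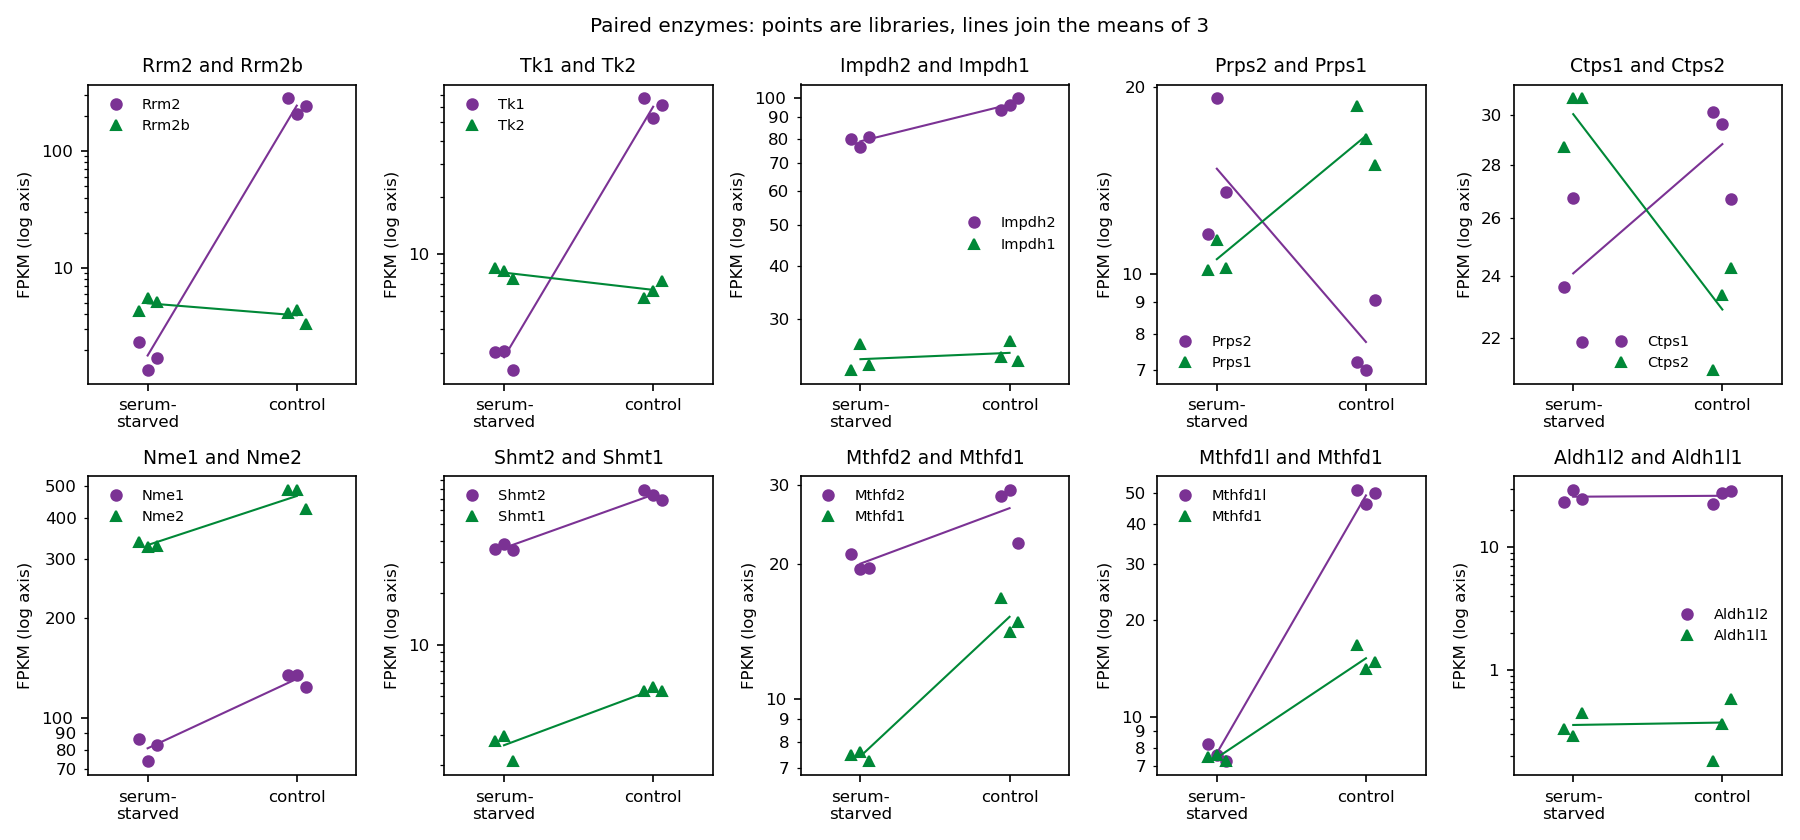
Paired enzymes in FPKM on log axes that differ between panels, with serum-starved libraries left and control libraries right and lines that join the means of 3. The lines cross for Rrm2 and Rrm2b, Tk1 and Tk2, Prps2 and Prps1, and Ctps1 and Ctps2, and run nearly parallel for Shmt2 and Shmt1. Prps1 is drawn without its copy, and with it Prps2 exceeded the sum in 1 of 3 serum-starved libraries.

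Genes of the same pathways outside the set were read from fixed lists, beside the 29.4% lower and 31.7% higher of all tested genes. In other genes of deoxynucleotide supply and pool cleaning, 7 of 12 tested fell and 2 rose. Cda, cytidine deaminase, was 6.28-fold lower, at 1.64 ± 0.674 in serum-starved and 10.3 ± 1.24 in control cells. Dguok, the mitochondrial deoxyguanosine kinase, rose 1.17-fold (limma, adjusted p = 0.0307). Other nucleotide kinases followed, with 5 of 10 lower and 0 called higher by limma (1 at an unadjusted p under 0.05 and 2 under sum scaling), among them Ak4, 4.22-fold lower.

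Outside synthesis, purine and pyrimidine genes moved in both directions. Of 12 other purine genes 1 fell, 3 rose and 8 were not called, and under sum scaling 0 fell and 6 rose. Xdh, which makes uric acid, rose to 145 ± 12.9 in serum-starved cells, against 113 ± 6.90 in control cells. Prpsap1 was 1.12-fold higher and Prpsap2 1.28-fold lower, both partners of PRPP synthetase. Of 6 other pyrimidine genes 3 rose and 2 fell (1 under sum scaling). The uridine salvage genes Uckl1 and Uprt rose 1.48-fold and 1.45-fold, unlike Uck2, while Upp1, uridine phosphorylase, was 5.27-fold lower and the nucleotidase gene Nt5c3b 1.25-fold lower. Upp1 varied among controls, at 35.6, 22.7 and 48.5. Of 9 nucleotidase and transporter genes 3 fell and 2 rose. Nt5e and Nt5c2, which take phosphate off nucleotides, were 3.06-fold and 1.77-fold lower, while Slc29a3, a nucleoside carrier of lysosomes, rose 1.76-fold and Entpd4 1.31-fold.

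In the other folate and one-carbon genes, 8 of 19 fell, 3 rose and 8 were not called. Psat1 of the serine synthesis pathway was 3.04-fold lower, at 9.85 ± 0.444 in serum-starved and 29.95 ± 5.32 in control cells. Slc46a1, a proton-coupled folate carrier, rose 2.01-fold, to 8.36 ± 0.497 in serum-starved cells, against 4.16 ± 0.789 in control cells. When each library was rescaled to the same sum, 5 of these genes fell and 7 rose.

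**Figure D4:**
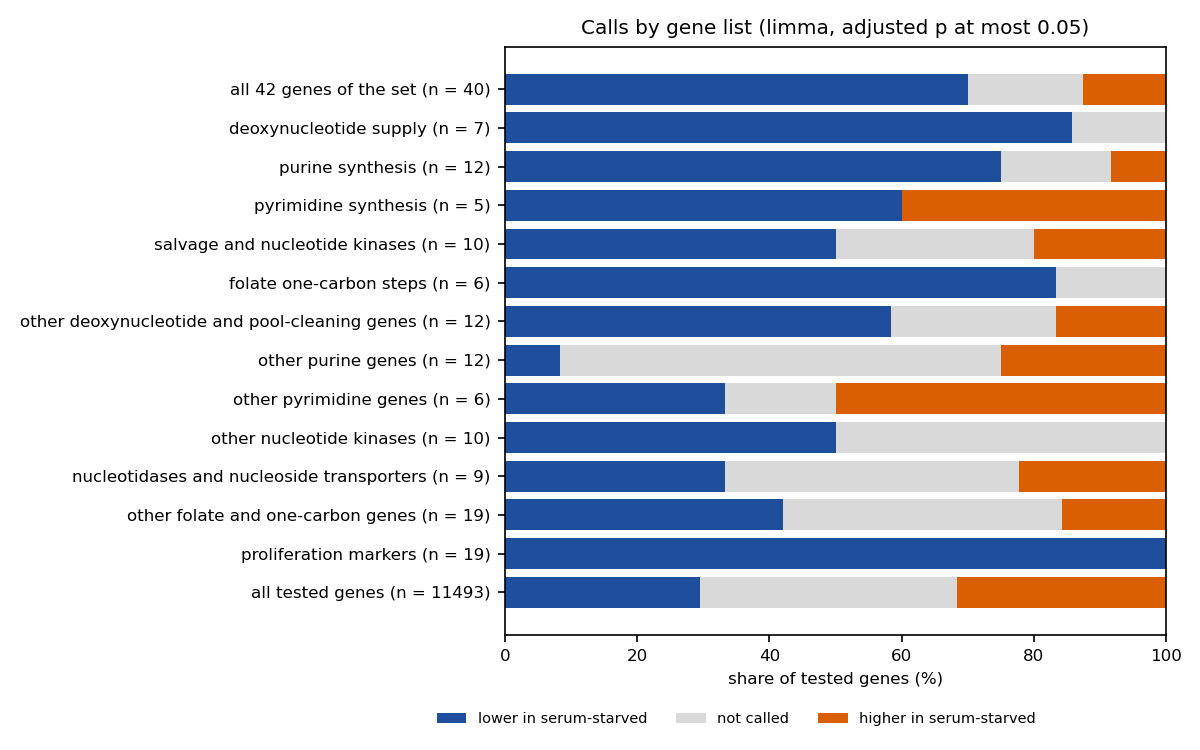
Share of tested genes called lower (blue), not called (grey) and higher (orange) in serum-starved cells, for the set, its role groups, other pathway lists and all tested genes. Deoxynucleotide supply (85.7% lower) and folate steps (83.3%) stand above the 29.4% of all tested genes, and other purine genes (8.33%) below it.

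Proliferation markers moved with the deoxynucleotide genes. All 19 fell, against 29.4% of all tested genes, with summed values of 108 to 113 in serum-starved and 494 to 641 in control libraries. Cdc6, Cdt1, Ccnb1 and Uhrf1 reached a value of 1 only in control libraries, so they could only be called lower. Top2a was 55.7-fold and Ccna2 42.3-fold lower. Control replicate 1 was the highest control for 15 of the 19 markers and for 6 of the 7 tested deoxynucleotide genes. It was highest for 9 of 12 purine, 6 of 10 salvage, 3 of 6 folate and 2 of 5 pyrimidine genes. In the lists outside the set it was so for 7 of 19 folate, 4 of 12 deoxynucleotide and 3 of 12 purine genes. For the rest the counts were 3 of 6 pyrimidine, 2 of 10 kinase and 2 of 9 nucleotidase and transporter genes. The share over all tested genes is not given here. Without control replicate 1, the number called lower was 6 for deoxynucleotide, 8 for purine, 2 for pyrimidine, 5 for salvage and 5 for folate genes. Of the proliferation markers 15 could then be tested, and 15 fell. The part of dividing cells in these differences was not tested.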

How the data were processed

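The authors deposited 1 table per library with 1 value per gene, rounded to 2 decimals, and no unit stands in the file headers. FPKM was taken as the unit of the deposited values, which have decimals and sums that differ between libraries, and TPM over a wider gene set would differ by a factor per library. The tools named are HISAT2, StringTie, limma, DESeq2 and bcl2fastq 2.0, per the submitters' processing notes, which give mm10, a mouse build, although the gene IDs are rat IDs, of which 15927 (93.2%) matched the rat assembly GRCr8. The build behind the values is therefore open, and coordinates are given only for RefSeq promoter windows. Per the labels' protocols, ribosomal RNA was removed with biotin probes and cDNA was primed at random. The sources used here do not say whether strand was used or how fragments matching several genes were handled. For 19 of the 42 genes the reference table lists a copy or pseudogene of that name, and those genes could lose or gain reads.

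Values were analysed as log2(value + 1), which understates changes of low genes. With an intensity trend and 4 residual degrees of freedom, limma 3.58.1 (R 4.3.3) compared the groups over the 11493 genes that reached 1 in at least 3 libraries, leaving out 5600. Folds are ratios of mean values. No pair of libraries was alike: at most 0.265% of values of at least 5 were equal. Exact permutation tests of within-library ratios were computed in R. Joins used pandas 2.3.3 under Python 3.11.15, and plots matplotlib 3.10.9.

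The genes of the set, the other lists and the tests were chosen with earlier results of these data known. In full, by rule, are up to 4 called genes with the largest change per role, both genes of each pair, and every gene not called or called higher. From other lists up to 2 genes called in each direction are named, if the group with more had a mean of 5 or above. Some genes that this rule picks are not reported here. Alternatives were pseudocounts of 0.1 and 5, no filter or one at 5, other scalings, library weights, no trend, a replicate term and each library left out.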

Additional observations from a re-analysis of the deposited data

How the results depend on the processing

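Of the 28 genes that fell, 24 were called lower under all 16 alternatives, and 28 of 28 kept their sign. Of the 5 called higher, Prps2 and Ctps2 were called under all 16. Hprt1 was called under the 13 in which it was tested. It passed the main filter only through the serum-starved libraries, so it could only be called higher and its 13 calls say nothing on robustness. The number of genes of the set called higher was 5, but 3 under median-ratio scaling, and 2 to 4 with a library left out. It was 7 under sum scaling and 6 under quantile normalization. Called higher in deoxynucleotide supply was 1 gene with no filter (Samhd1, tested there) and 1 with sum scaling (Rrm2b), and 0 to 1 with a library left out. In pyrimidine synthesis 1 gene was called higher with no filter and with median-ratio scaling, and 1 to 2 with a library left out. In salvage the number was 1 with no filter, with median-ratio scaling and without Hprt1 (chosen after seeing the data), and 0 to 2 with a library left out. The cause was not tested. Genes of the set called lower numbered 26 to 28 with a library left out, 24 under sum scaling and 29 under median-ratio scaling. Sum scaling moved the share of calls that were higher, over all genes, to 69.5% from 51.8%.

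The difference in log2 ratio of Shmt2/Shmt1 became 0.032 with a pseudocount of 0.1 and 0.022 after quantile normalization, and that of Aldh1l2/Aldh1l1 became 0.092 under sum scaling and 0.072 after quantile normalization, and ran from -0.15 to 0.063 with a library left out. Both are differences near 0.

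Groups share replicate numbers 1 to 3 in the labels, but same-numbered libraries did not deviate together (correlations 0.04, -0.16 and 0.10 for numbers 1, 2 and 3), so the numbers were not taken as pairs. With a replicate block, 3 genes of the set were called higher, 1 of them in pyrimidine synthesis and 1 in salvage, and Cad and Tk2 were not called. No counts were given, so the precision at low values, such as those of Samhd1 and Aldh1l1, is unknown.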

Other observations

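The libraries of a group lay close for most genes of the set. Over the 41 genes with a value above 0 in every library, the median coefficient of variation was 7.89% in serum-starved and 7.26% in control libraries. The widest was 32.7% for Dctpp1 in serum-starved and 53.7% for Aldh1l1 in control libraries, both at low values.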
